A study of Mus musculus with 18 samples.

Results

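The spleens compared here came from leukemic mice of 1 genotype and differed in how much RNA of the T-cell receptor gamma segment Trgv4 they held. Among the 9 arrays of Idh2R140Q/NHD13 spleens, the array of mouse 555 was left out because it carried kidney transcripts, and the arrays of mice 546 and 550 were averaged and counted as 1 sample because they differed by less than any other pair. The remaining 7 samples were split by the log2 signal of the brightest Trgv4 probe set. The 3 samples below 10, from mice 525, 531 and 570, are called T-lineage-low, and the 4 samples at 10 or above, from mice 524, 526, 546 with 550, and 559, are called T-lineage-high. Of the 18 arrays in the series, 8 enter the comparison. Levels are also given for 6 leukemic thymi of SCL/LMO1 mice and 3 wild-type thymi.

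All 7 spleen samples carry the same alleles, a mutant form of the mitochondrial enzyme isocitrate dehydrogenase encoded by Idh2 and the NUP98-HOXD13 fusion transgene, and no treatment, age or time is given for them. The labels describe their disease as T-cell acute lymphoblastic leukemia of DN1/DN2 type, named after the earliest thymocytes, which lack both CD4 and CD8. The SCL/LMO1 leukemias are described as cortical and positive for CD4 and CD8. Labels do not say how many leukemic cells a spleen held. They tie each array to a mouse number only, so p-values measure the spread between these samples. In whole tissue, fewer cells of a type and less RNA per cell cannot be told apart.

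T-cell precursors pass from progenitors that still share genes with other blood lineages to committed cells under the control of Notch signalling and of factors such as Tcf7, Gata3 and Bcl11b. They then rearrange the receptor loci and assemble the CD3 complex, which passes receptor signals to kinases such as Lck and Zap70. In mice the spleen also makes red cells, more so under stress, and its red pulp holds macrophages that recycle iron. Gene levels are given as deposited log2 signals, on which 1 unit is a doubling of signal, and a difference is the mean of T-lineage-low samples minus the mean of T-lineage-high samples.

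The samples were chosen by their Trgv4 signal, so the values that made the split are a description, with no test. Trgv4 stood at 9.12, 8.68 and 5.92 in the T-lineage-low spleens of mice 525, 531 and 570, and at 13.56, 13.26, 12.72 and 11.04 in the T-lineage-high spleens of mice 524, 526, 546 with 550, and 559. The samples nearest the threshold were 525 at 9.12 below it and 559 at 11.04 above it. In the thymi the range was 4.06 to 12.02 for SCL/LMO1, with a median of 6.67, and 8.95 to 10.36 for wild type, so mouse 525 lay within the range of normal thymus and mice 531 and 570 below it. A dimmer Trgv4 probe set did not divide the samples in this way. It read 5.43, 5.48 and 3.24 in the T-lineage-low spleens, against 5.68, 4.20, 10.19 and 7.74 in the T-lineage-high ones. The neighbouring segment Trgv1 read 7.36, 9.41 and 4.93 in the T-lineage-low spleens and 13.35, 13.54, 12.24 and 12.53 in the T-lineage-high ones. Probe sets for the beta-chain joining region Tcrb-J read 11.34, 9.45 and 7.69 at the brightest in the T-lineage-low spleens, against 14.23, 13.40, 13.30 and 12.73 in the T-lineage-high ones, and mouse 525 came closest to the upper group.

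Across the 20661 genes other than receptor segments, 0 passed limma at an adjusted p under 0.05 (0% called), and 2148 (10.4%) had an unadjusted p under 0.05, of which 822 (3.98%) were higher and 1326 (6.42%) lower in T-lineage-low spleens. The smallest adjusted p was 0.0592. An exact permutation test of 3 samples against 4 cannot go below a two-sided p of 0.057, so single genes are given by their values, their overlap and the limma p. The groups did not overlap at 2236 genes, which is 10.8% of those tested, 1071 of them higher in T-lineage-low spleens (5.18%) and 1165 lower (5.64%). These shares are the background for the list counts given below. The median difference over all genes was 0.03. Since the split was made from a measured value, each p describes association with Trgv4 RNA among these 7 samples and not the effect of a treatment.

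**Figure D1:**
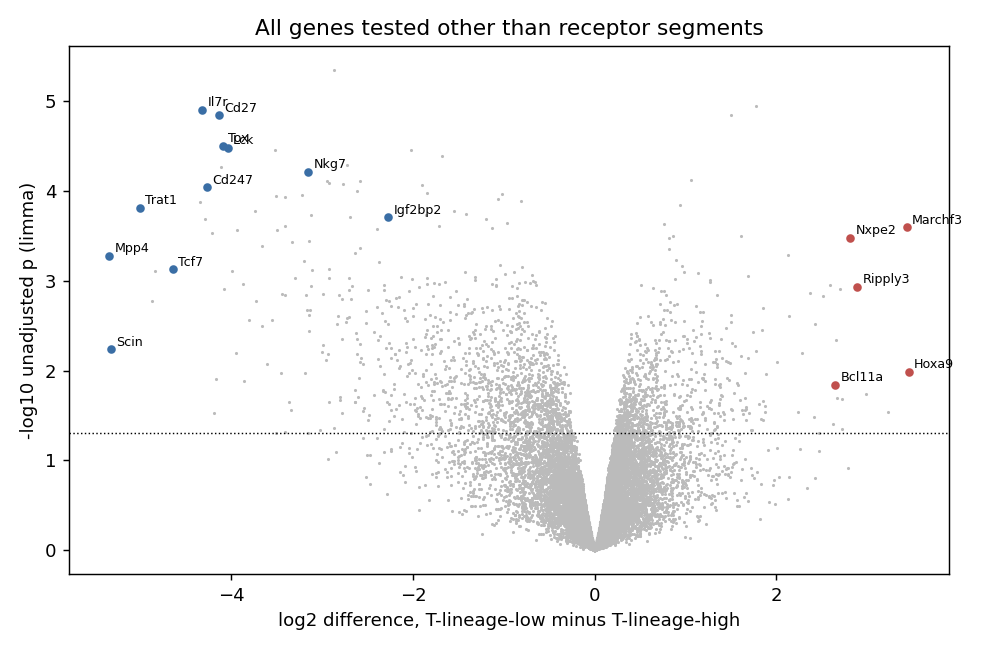
Each point is 1 of 20661 genes, by its log2 difference (T-lineage-low minus T-lineage-high, n = 3 and 4) and the -log10 of its unadjusted limma p, with the dotted line at a p of 0.05. The named genes at the left (blue) had lower signal in T-lineage-low spleens, down to -5.34 for Mpp4, and those at the right (red) had higher signal, up to 3.46 for Hoxa9.

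The T-lineage label was first checked against its own genes, without tests, because the split was proposed with their values known. Of 22 genes of the receptor complex and its proximal signalling, 14 were lower in T-lineage-low spleens without overlap, 0 were higher without overlap, and the median difference was -2.48. Lck, the Src-family kinase that starts receptor signalling, read 7.93, 8.19 and 8.03 in the T-lineage-low spleens, against 13.15, 12.27, 11.43 and 11.50 in the T-lineage-high ones. Cd247, the zeta chain of the receptor complex, read 6.57, 6.13 and 4.96 in the T-lineage-low spleens and 11.10, 10.37, 9.36 and 9.79 in the T-lineage-high ones, a 19.2-fold lower signal in the first group. Both genes left a gap of more than 2 log2 units between the groups. Cd3e, a CD3 chain, read 7.57, 7.81 and 7.45 in the T-lineage-low spleens and 10.11, 9.59, 9.57 and 9.25 in the T-lineage-high ones. For its partner Cd3g the values were 7.72, 7.37 and 6.17 in the T-lineage-low spleens and 9.87, 11.50, 10.69 and 11.25 in the T-lineage-high ones.

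The label did not hold for every receptor gene. Cd3d, the third CD3 chain, read 6.20, 6.13 and 7.37 in the T-lineage-low spleens and 6.76, 7.07, 7.79 and 8.64 in the T-lineage-high ones, and the groups overlapped. It was far below the thymi in both groups, since SCL/LMO1 thymi ranged from 13.13 to 13.68 and wild-type thymi from 12.53 to 13.34. Cd2, an adhesion receptor of T cells, ranged from 4.55 to 5.54 in T-lineage-low spleens and from 4.64 to 6.52 in T-lineage-high ones, against at least 9.99 in every thymus. Ptcra, which encodes the surrogate chain that pairs with a new beta chain, lay at or below 5.36 in all 7 spleens and at 8.20 or above in every thymus. Of the 7 defining markers of the T lineage, Cd3e, Cd3g, Bcl11b and Tcf7 separated the groups, and Cd3d, Cd2 and Thy1 did not. Thy1, a surface glycoprotein of thymocytes, read 7.86, 6.23 and 6.48 in the T-lineage-low spleens and 12.60, 11, 7.57 and 9.69 in the T-lineage-high ones, with 546 and 550 below mouse 525.

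Transcription factors of the T lineage showed the same division, with 9 of 15 lower in T-lineage-low spleens without overlap, 0 higher and a median difference of -2.37. Tcf7, the factor TCF1 that acts downstream of Notch in early T cells, read 7.98, 7.42 and 5.39 in the T-lineage-low spleens and 12.77, 12.11, 10.18 and 11.23 in the T-lineage-high ones. Gata3, which specifies the lineage together with Tcf7, read 5.51, 4.77 and 4.19 in the T-lineage-low spleens and 10.66, 9.38, 7.56 and 7.98 in the T-lineage-high ones. Bcl11b, the commitment factor, read 9.12, 7.27 and 6.33 in the T-lineage-low spleens and 12.81, 11.53, 11.19 and 10.01 in the T-lineage-high ones, so mouse 525 came within 1 unit of mouse 559. Of the T-lineage-high spleens only that of mouse 524 exceeded the highest wild-type thymus, 9.51, for Gata3. Lef1, a relative of Tcf7, read 6.01, 6.22 and 5.70 in the T-lineage-low spleens and 6.42, 9.52, 7.95 and 9.32 in the T-lineage-high ones, and all of these were below the lowest wild-type thymus, 11.02. Runx3, which acts in cytotoxic and innate-like lymphocytes, was lower by 1.78 without overlap, and the T-lineage-high spleens (9.60 to 10.56) exceeded all 3 wild-type thymi (7.05 to 8.01).

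**Figure D2:**
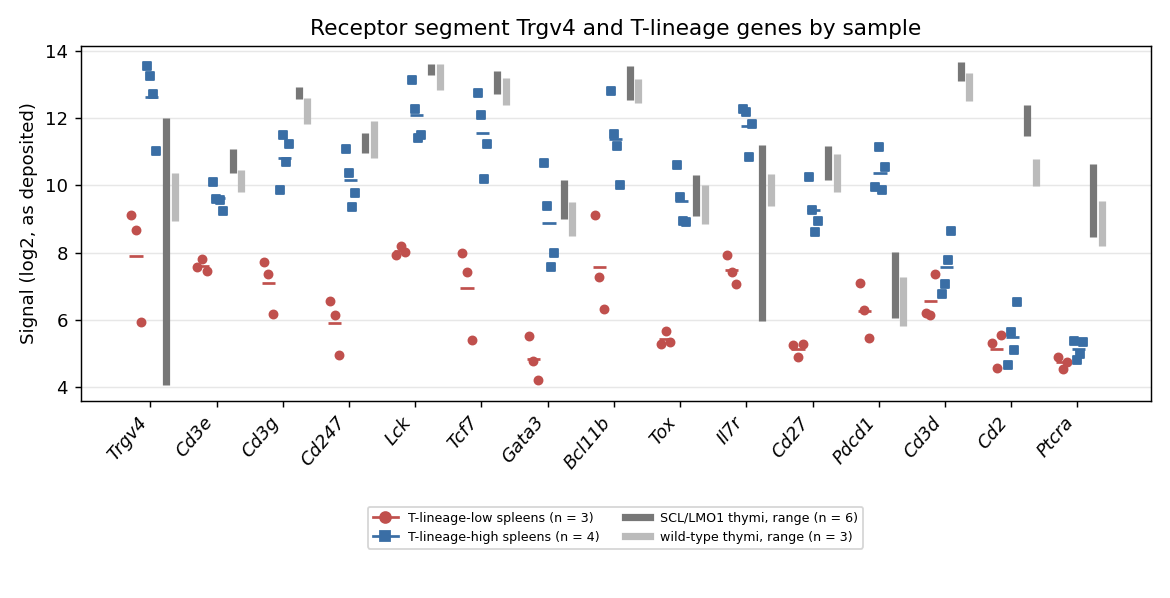
Deposited log2 signal of Trgv4 and 14 T-lineage genes, with a point for each T-lineage-low spleen (red circles, n = 3) and T-lineage-high spleen (blue squares, n = 4), a short line at each group mean, and bars for the range of SCL/LMO1 (dark grey, n = 6) and wild-type thymi (light grey, n = 3). From Trgv4 to Pdcd1 the spleen groups do not overlap, and at Cd3d, Cd2 and Ptcra they overlap and lie below the thymi.

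The genes with the largest differences were taken by a rule of size from those with an unadjusted p under 0.05 and no overlap. On the lower side they were Mpp4, Scin, Trat1, Cpa3, Tcf7, Sytl2, Il7r, Cd247, Skap1, Cd27, Pdcd1 and Tox. Of these, Il7r and Cd27 had the smallest adjusted p of the comparison. Because the split was proposed with the values of T-lineage genes known, p-values of such genes here and below are descriptions and give no support. Il7r, the receptor chain through which interleukin 7 keeps early lymphocytes alive, read 7.92, 7.43 and 7.06 in the T-lineage-low spleens and 12.28, 12.19, 10.85 and 11.83 in the T-lineage-high ones. The difference of -4.32 (SE 0.39) is on the log2 scale, and the limma adjusted p was 0.0592. Cd27, a costimulatory receptor of the TNF receptor family that also marks subsets of gamma-delta T cells, read 5.24, 4.88 and 5.27 in the T-lineage-low spleens and 10.25, 9.27, 8.62 and 8.93 in the T-lineage-high ones (difference -4.14, SE 0.38, limma adjusted p = 0.0592). For both genes the T-lineage-low samples lay within 0.9 units of each other.

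Besides Il7r and Cd27, Hoxa9 and Bcl11a were picked from the higher side, where other genes had a smaller p. Promoters of these 4 genes are shown as examples only. They run from 250 bases before to 50 bases after the start of the RefSeq gene on GRCm38.p6, read 5′ to 3′ along the gene's strand. Capitals mark matches, on either strand, to any of 4 motifs. They are TGTGGT, the core bound by RUNX factors, AGATAA for the GATA family, CTTTGA for TCF and LEF factors, and CAGNTG, an E-box. No 2 different motifs overlap in these windows. The regions are chr15:9529827-9530126 (minus strand) for Il7r, chr6:125236978-125237277 (minus) for Cd27, chr6:52227321-52227620 (minus) for Hoxa9 and chr11:24080445-24080744 (plus) for Bcl11a.
Il7r: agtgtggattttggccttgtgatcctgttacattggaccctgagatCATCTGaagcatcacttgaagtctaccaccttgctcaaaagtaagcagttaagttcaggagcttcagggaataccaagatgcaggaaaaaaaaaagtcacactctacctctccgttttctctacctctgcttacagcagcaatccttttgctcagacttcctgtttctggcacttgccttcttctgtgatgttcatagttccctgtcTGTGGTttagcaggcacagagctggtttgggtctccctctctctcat
Cd27: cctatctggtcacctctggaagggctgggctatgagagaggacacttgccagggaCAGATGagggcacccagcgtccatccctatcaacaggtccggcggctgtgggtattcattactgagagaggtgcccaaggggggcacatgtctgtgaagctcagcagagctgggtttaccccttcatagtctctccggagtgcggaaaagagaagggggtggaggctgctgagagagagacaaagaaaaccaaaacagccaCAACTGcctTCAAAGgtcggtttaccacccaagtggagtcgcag
Hoxa9: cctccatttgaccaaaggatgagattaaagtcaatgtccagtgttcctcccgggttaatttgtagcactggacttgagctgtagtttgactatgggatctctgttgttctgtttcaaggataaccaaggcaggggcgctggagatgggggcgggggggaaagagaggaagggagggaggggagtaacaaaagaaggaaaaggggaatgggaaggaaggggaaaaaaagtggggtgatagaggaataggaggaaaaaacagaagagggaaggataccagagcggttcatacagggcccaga
Bcl11a: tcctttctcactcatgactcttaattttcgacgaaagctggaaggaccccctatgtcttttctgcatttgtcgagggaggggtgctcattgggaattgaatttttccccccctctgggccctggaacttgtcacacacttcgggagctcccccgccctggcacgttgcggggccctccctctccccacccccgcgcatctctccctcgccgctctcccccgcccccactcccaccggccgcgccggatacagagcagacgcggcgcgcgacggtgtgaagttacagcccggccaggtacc
The Il7r window held 1 RUNX match near the gene start and 1 E-box, and the Cd27 window held 1 TCF match and 2 E-boxes. The windows of Hoxa9 and Bcl11a held none of the 4 motifs. Of 32851 mouse promoters of this length, 16.8% held the RUNX core, 11.2% the GATA letters, 16% the TCF letters and 51.4% the E-box, so each of these matches is common. The matches are descriptions of letters and not of bound sites.

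Of 20 cytokine receptor and JAK-STAT genes, 5 were lower in T-lineage-low spleens without overlap and 0 were higher, against 5.64% and 5.18% of all genes. The median difference was -0.50. Il2rg, the common gamma chain that pairs with Il7r, read 10.36, 10.02 and 10.57 in the T-lineage-low spleens and 12.31, 11.53, 11.49 and 11.22 in the T-lineage-high ones (limma adjusted p = 0.234). Jak3, the kinase bound to that chain, differed by -0.78 (adjusted p = 0.246 in limma), and Stat5b, a transcription factor it activates, by -0.79 (adjusted p = 0.318 in limma). Il2ra, the alpha chain of the interleukin 2 receptor and a marker of DN2 cells, read 5.92, 5.85 and 5.39 in the T-lineage-low spleens and 11.60, 9.85, 7.18 and 6.34 in the T-lineage-high ones. The groups did not overlap for Il2ra, but mouse 559 lay within 0.5 units of mouse 525 and the T-lineage-high spread was wide. In the BCL2 family, 2 of 11 measured genes were lower without overlap, against 5.64% of all genes. Bcl2l11, which encodes the death-promoting protein BIM, was lower by 0.81 and Bmf by 1.97. For Bmf, mouse 570 (7.69) lay just below mouse 559 (7.73), and the difference was -1.28 without mouse 524. The survival gene Bcl2 read 8.49, 8.68 and 9.52 in the T-lineage-low spleens and 12.84, 12, 10.78 and 9.03 in the T-lineage-high ones, and the groups overlapped through mouse 559.

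Several of the genes lower in T-lineage-low spleens were not T-lineage genes by their usual roles, or were higher in T-lineage-high spleens than in any thymus. Pdcd1, the inhibitory receptor PD-1, read 7.08, 6.29 and 5.44 in the T-lineage-low spleens and 9.95, 11.16, 9.87 and 10.55 in the T-lineage-high ones (difference -4.11, SE 0.46, limma adjusted p = 0.0924). The T-lineage-high values exceeded every SCL/LMO1 thymus (6.04 to 8.02) and every wild-type thymus (5.82 to 7.27). Scin, a calcium-dependent actin-severing protein, read 6.02, 7.20 and 4.52 in the T-lineage-low spleens and 12.65, 12.35, 12.31 and 7.62 in the T-lineage-high ones. The values of mice 524, 526 and 546 with 550 were close together, and mouse 559 stood near the T-lineage-low spleens. Cpa3, a carboxypeptidase of mast cells and basophils that early progenitors also express, read 7.36, 8.71 and 5.78 in the T-lineage-low spleens and 10.96, 13.10, 13.12 and 11.31 in the T-lineage-high ones. Over the 13 measured mast cell, basophil and eosinophil genes 2 were lower without overlap, against 5.64% of all genes. The median difference was 0.04, so Cpa3 was not matched by its list.

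Mpp4, a membrane scaffold protein best known from the retina, had the lowest difference, -5.34 (SE 0.87), with 4.27, 5.24 and 3.53 in the T-lineage-low spleens and 8.10, 11.59, 10.27 and 8.78 in the T-lineage-high ones. Trat1, an adaptor that stabilises the receptor complex at the surface, read 4.89, 6.11 and 4.50 in the T-lineage-low spleens and 11.76, 9.68, 9.21 and 10.04 in the T-lineage-high ones. Sytl2, which tethers secretory vesicles, read 6.18, 6.94 and 4.79 in the T-lineage-low spleens and 11.06, 10.48, 10.19 and 9.51 in the T-lineage-high ones. The T-lineage-high values of Sytl2 lay above all 9 thymi, whose highest value was 9.20. Tox, a nuclear factor needed for lymphoid development, lay between 5.28 and 5.67 in the T-lineage-low spleens and between 8.90 and 10.60 in the T-lineage-high ones. Skap1, an adaptor for integrin activation, differed by -4.21 (SE 0.62). Its values were 6.02, 5.14 and 4.99 in the T-lineage-low spleens and 11.26, 8.87, 9.22 and 9.00 in the T-lineage-high ones, with mouse 524 above the rest.

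Cytotoxic and innate lymphoid genes gave a mixed picture, with 4 of 18 lower without overlap, 0 higher and a median difference of -0.45. Over all genes 5.64% were lower and 5.18% higher without overlap. Klrb1c, 1 of the 4, was dim in both groups, with means of 5.62 in T-lineage-low and 5.97 in T-lineage-high spleens. Nkg7, a granule membrane protein of cytotoxic cells, read 8.69, 8.67 and 8.13 in the T-lineage-low spleens and 12.20, 11.84, 11.81 and 10.72 in the T-lineage-high ones, against 5.77 to 8.80 in SCL/LMO1 thymi and 8.35 to 8.79 in wild-type thymi. The T-lineage-high spleens were thus above all thymi. Nkg7 was added after its values were seen, and it is among the 4 genes counted above. Gzmb, a granule protease, read 6.72, 9.52 and 7.80 in the T-lineage-low spleens and 12.36, 7.25, 12.57 and 11.26 in the T-lineage-high ones, and overlapped because mouse 526 was low. Among gamma-delta T-cell genes 3 of 12 were lower without overlap, against 5.64% of all genes. The 3 were Cd27, the innate-like lymphocyte factor Zbtb16 (difference -1.79, limma adjusted p = 0.291) and Sox13, a factor of gamma-delta cells (difference -0.78, limma adjusted p = 0.395).

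Of 13 genes of double-positive thymocytes 4 were lower in T-lineage-low spleens without overlap and 1 was higher, against 5.64% and 5.18% of all genes. The median difference was -1.04. Themis, which tunes receptor signalling in thymocytes, read 7.41, 7.18 and 5.62 in the T-lineage-low spleens and 12.19, 10.67, 10.54 and 9.50 in the T-lineage-high ones, against 11.07 to 12.16 in wild-type thymi. Rag1, the recombinase that cuts receptor loci, read 4.83, 4.53 and 4.53 in the T-lineage-low spleens and 9.20, 4.57, 3.99 and 4.92 in the T-lineage-high ones, against at least 12.32 in every thymus. Mouse 524 alone stood above 5. Dntt, the polymerase that adds bases at receptor joints, read 7.90, 5.76 and 5.82 in the T-lineage-low spleens and 12.05, 5.09, 10 and 8.89 in the T-lineage-high ones, and overlapped because mouse 526 was low. Ccr9, the gut and thymus homing receptor, read 5.63, 5.15 and 8.02 in the T-lineage-low spleens and 12.84, 9.39, 9.86 and 8.43 in the T-lineage-high ones, and did not overlap. In the Notch pathway 0 of 11 measured genes separated the groups, and the median difference was -0.03. The mean of the list did separate them. It was 7.69, 7.88 and 7.96 in the T-lineage-low spleens and 8.22, 8.14, 8.23 and 8.07 in the T-lineage-high ones. Notch3 differed by -1.85 (SE 0.56) and overlapped. Notch1, the receptor that starts T-cell specification, read 7.49, 8.20 and 9.45 in the T-lineage-low spleens and 11.50, 10.65, 10 and 8.99 in the T-lineage-high ones. Its target Dtx1 lay between 6.45 and 7.80 in all 7 spleens, against 11.84 to 12.44 in SCL/LMO1 thymi.

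Most progenitor genes overlapped between the spleen groups, and several were above every thymus in both. Of 20 genes of the earliest thymic progenitors 2 were lower and 2 higher without overlap, against 5.64% and 5.18% of all genes. The median difference was 0 to 2 decimals. Kit, the receptor for stem cell factor, read 9.80, 10.51 and 9.09 in the T-lineage-low spleens and 10.57, 10.38, 10.11 and 9.63 in the T-lineage-high ones, against 5.48 to 8.38 in SCL/LMO1 thymi and 7.05 to 7.20 in wild-type thymi. Lyl1, a basic helix-loop-helix factor of early progenitors, lay between 10.47 and 10.50 in the T-lineage-low spleens and between 10.13 and 10.98 in the T-lineage-high ones. Hhex, a homeobox factor of early progenitors, lay between 8.96 and 9.79 in the T-lineage-low spleens and between 9.57 and 10.46 in the T-lineage-high ones. Kit, Lyl1 and Hhex overlapped between the groups, and the limma adjusted p values were 0.759, 0.95 and 0.525, which do not show that their levels were equal. The 2 higher members were Bcl11a and Tal1 and the 2 lower ones Il7r and Il2ra.

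On the higher side the rule of size named Hoxa9, Marchf3, Ripply3, Nxpe2, Gstm5, Slc22a4, Otub2, Bcl11a, Pank1, Eif5a2, Ninl and Ifit1. Hoxa9, a homeobox gene of stem and progenitor cells that NUP98 fusions are known to raise, read 10.14, 10.40 and 12 in the T-lineage-low spleens and 8.98, 6.14, 8.82 and 5.62 in the T-lineage-high ones. The difference was 3.46 (SE 0.99), an 11-fold higher signal, with a limma adjusted p of 0.335. With this brightest probe set all 7 spleens exceeded the highest thymus of either genotype, 5.48. The second Hoxa9 probe set gave a difference of 1.00, also without overlap between the spleen groups. At that probe set mice 526 (5.86) and 559 (6.09) lay within the ranges of SCL/LMO1 thymi (5.78 to 6.10) and wild-type thymi (5.55 to 6.15). Of the 10 measured genes of the Hoxa cluster, Hoxa9 was the one higher without overlap, and Hoxa7 the one lower without overlap. Over all genes the shares were 5.18% higher and 5.64% lower. Hoxa7 read 7.77, 7.51 and 8 in the T-lineage-low spleens and 9.29, 8.59, 9.13 and 8.08 in the T-lineage-high ones. Hoxa10, next to Hoxa9, read 4.13, 4.78 and 6.86 in the T-lineage-low spleens and 4.33, 3.97, 3.95 and 3.97 in the T-lineage-high ones. Mouse 570 was the highest for both Hoxa9 and Hoxa10.

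Of 16 measured Hoxc and Hoxd genes, with a median difference of 0.13, 0 were higher without overlap and 1 was lower, against 5.64% of all genes. That gene, Hoxc8, read 6.33, 6.69 and 5.96 in the T-lineage-low spleens and 7.31, 8.29, 6.96 and 9.18 in the T-lineage-high ones. Pbx3, which encodes a partner of HOX proteins on DNA, was lower by 1.20 (SE 0.45, limma adjusted p = 0.431) without overlap. Bcl11a, a zinc-finger factor of progenitor, B and dendritic cells that also silences embryonic and fetal globins, read 11.72, 10.37 and 10.17 in the T-lineage-low spleens and 6.66, 7.32, 8.51 and 9.93 in the T-lineage-high ones. Mouse 559, the T-lineage-high spleen with the least Trgv4, came within 0.3 units of mouse 570. These values are from the brightest Bcl11a probe set, and the lack of overlap did not hold for every other one. At another, mouse 559 read 10.08 and mouse 570 read 9.89, so the groups overlapped there. Bcl11a and Bcl11b thus took opposite directions, with differences of 2.65 (SE 0.81) and -3.81 (SE 0.83).

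Marchf3, a membrane ubiquitin ligase, had the smallest limma p among the 12 higher genes (adjusted p = 0.116), at 8.84, 9.40 and 9.93 in the T-lineage-low spleens and 5.53, 6.13, 7.07 and 5.10 in the T-lineage-high ones. Nxpe2, a protein of the neurexophilin-like family, read 9.20, 10.21 and 10.27 in the T-lineage-low spleens and 7.27, 6.44, 6.69 and 7.92 in the T-lineage-high ones (limma adjusted p = 0.127). Slc22a4, an ergothioneine transporter, read 9.64, 9.34 and 8.03 in the T-lineage-low spleens and 5.36, 6.75, 6.91 and 6.20 in the T-lineage-high ones. These 3 genes left gaps of more than 1 log2 unit between the groups. Otub2, a deubiquitinase, read 9.17, 10.69 and 10.08 in the T-lineage-low spleens and 6.36, 6.84, 7.26 and 8.86 in the T-lineage-high ones. Ripply3, Gstm5, Pank1, Eif5a2 and Ninl differed by 2.89, 2.72, 2.59, 2.51 and 2.42. Ifit1, an interferon-induced antiviral gene, read 7.18, 6.77 and 10.19 in the T-lineage-low spleens and 5.04, 6.71, 4.73 and 6.07 in the T-lineage-high ones. Its difference was 2.41, and 1.34 without mouse 570. Mouse 570 stood highest, and it was also the highest for the interferon regulator Irf7 (11.01, against 7.08 to 8.39 in the other 6 samples).

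**Figure D3:**
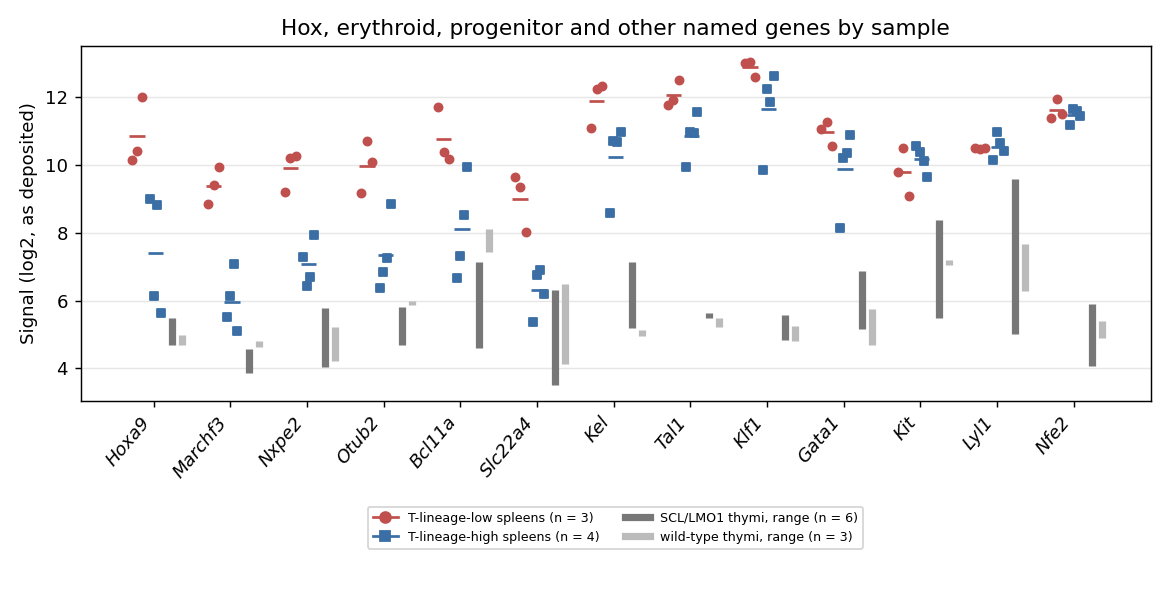
Deposited log2 signal of 13 genes, with a point for each T-lineage-low (red circles, n = 3) and T-lineage-high spleen (blue squares, n = 4), lines at group means and bars for the ranges of SCL/LMO1 (n = 6) and wild-type thymi (n = 3). At the brightest probe set of each gene, Hoxa9 to Tal1 do not overlap between the spleen groups. Klf1, Gata1, Kit, Lyl1 and Nfe2 do overlap, and most spleen values lie above the thymi.

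Many erythroid genes were higher in T-lineage-low spleens. Of 17 red cell membrane and carbonic anhydrase genes, 8 were higher in T-lineage-low spleens without overlap, 0 were lower and the median difference was 1.33. The same held for 4 of 17 globin and heme genes (median 0.60) and for 3 of 11 erythroid regulators (median 1.01). Over all genes 5.18% were higher without overlap. The 3 regulators include Epor, the erythropoietin receptor gene, and Bcl11a, which was also counted among the progenitor genes. Kel, a blood group glycoprotein, read 11.10, 12.24 and 12.33 in the T-lineage-low spleens and 8.57, 10.69, 10.68 and 10.97 in the T-lineage-high ones (difference 1.66, SE 0.64, limma adjusted p = 0.436). Within the T-lineage-high group mouse 524 had the lowest Kel, and mouse 559, with the least Trgv4, the highest.

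Tal1, a regulator of red cell formation that is also the SCL of the transgene used in the other leukemia, read 11.77, 11.92 and 12.51 in the T-lineage-low spleens and 9.95, 10.97, 10.93 and 11.56 in the T-lineage-high ones, against 5.22 to 5.63 in all thymi. Cpox, a heme synthesis enzyme, read 11.43, 11.56 and 11.07 in the T-lineage-low spleens and 8.96, 10.31, 10.12 and 10.72 in the T-lineage-high ones. Klf1 and Gata1, the main erythroid regulators, overlapped between the groups, with differences of 1.24 (SE 0.64) and 1.08 (SE 0.63). Without mouse 524 these were 0.64 for Klf1 and 0.50 for Gata1. The embryonic beta-like globin Hbb-bh1 did not follow the split. It read 8.39, 13.57 and 6.34 in the T-lineage-low spleens and 5.26, 13.83, 11.78 and 7.38 in the T-lineage-high ones, so mice 531, 526 and 546 with 550 were high in spite of opposite group labels. Of 26 cell cycle and replication genes 5 were higher without overlap, against 5.18% of all genes, and 0 lower. The median difference was 0.55. The list averaged 11.22, 11.27 and 11.22 in the T-lineage-low spleens and 9.86, 10.74, 10.89 and 11.22 in the T-lineage-high ones, so mouse 559 was level with the T-lineage-low spleens and mouse 524 was the lowest. Rrm2, a ribonucleotide reductase subunit, differed by 0.76 (SE 0.28) and Birc5, the mitotic protein survivin, by 1.05 (SE 0.42).

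**Figure D4:**
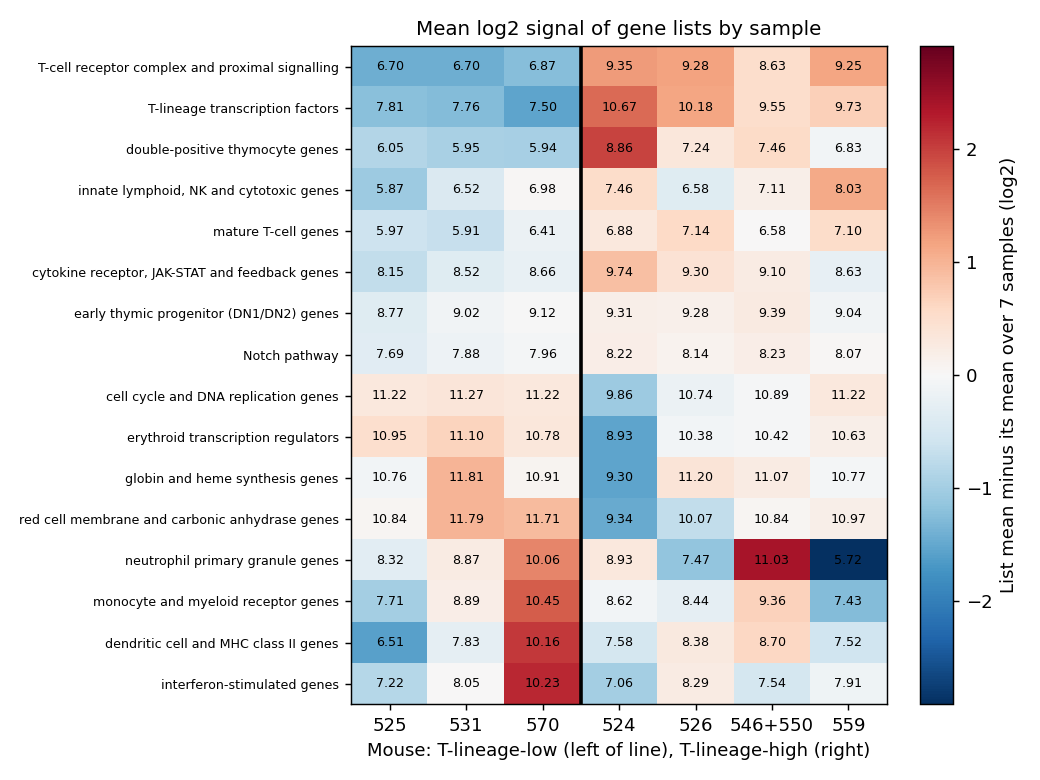
Mean log2 signal of 16 gene lists (rows) in each sample (columns), with T-lineage-low mice left of the black line and T-lineage-high mice right of it. Numbers are list means and colour is the list mean minus its mean over the 7 samples. The 2 T-lineage lists at the top divide at the line, with 6.70 to 6.87 and 7.50 to 7.81 in the T-lineage-low samples, and the granule, monocyte, MHC class II and interferon lists do not.

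The red cell membrane list averaged 10.84, 11.79 and 11.71 in the T-lineage-low spleens and 9.34, 10.07, 10.84 and 10.97 in the T-lineage-high ones. With that mean as a covariate beside the split, 669 of 20661 genes had an unadjusted limma p under 0.05, against 2148 (10.4%) without it. The mean itself followed the split in part, and a further term costs precision with 7 samples. A lower count was therefore to be expected whatever its source. Whether the makeup of the spleens accounts for the differences was not tested.

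Myeloid lists overlapped between the groups. The neutrophil primary granule list averaged 8.32, 8.87 and 10.06 in the T-lineage-low spleens and 8.93, 7.47, 11.03 and 5.72 in the T-lineage-high ones. Median differences were 1.14 over 7 primary and 1.41 over 12 secondary granule genes, with 0 of either list apart in the 2 groups. Mpo, the main granule enzyme, was lowest in mouse 559 at 5.73 and highest in mice 546 and 550 at 13.06, both T-lineage-high. Monocyte, dendritic and interferon-stimulated lists were highest in mouse 570. H2-Eb1, an MHC class II chain, read 7.09, 9.81 and 12.70 in the T-lineage-low spleens, which spanned the T-lineage-high values of 8.98, 10.95, 11.35 and 9.40. Red pulp macrophage genes averaged between 9.33 and 10.78 in all 7 samples, a range that wild-type thymi (9.03 to 9.81) overlapped. SCL/LMO1 thymi (8.21 to 9.10) lay below it. The list thus does not set the spleens apart from wild-type thymus here. Of the 14, only Cd5l, a protein that macrophages secrete, was higher in T-lineage-low spleens without overlap. It read 11.26, 11.80 and 11.14 there, against 9.50, 10.88, 9.09 and 10.67 in the T-lineage-high ones. Over all genes 5.18% were higher without overlap. Both groups held samples with Xist and samples with Y-linked RNA.

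The engineered loci were checked as well, although it is not known here which of endogenous, mutant or human transcripts each probe set reads. A reading may mix them or miss some. The Tal1 probe set, for example, read low in every thymus, those of SCL/LMO1 mice included. Idh2 read 7.90, 9.65 and 9.45 in the T-lineage-low spleens and 10.81, 10.38, 10.19 and 9.84 in the T-lineage-high ones, a difference of -1.30 (SE 0.45, limma adjusted p = 0.402) without overlap. Mouse 525 was the lowest by more than 1 log2 unit, and without it the Idh2 difference was -0.75. It was also -0.75 with the mean of all Idh2 probe sets. Nup98 differed by 0.21 without overlap with the brightest probe set and by -0.03 with the mean of all its probe sets. Hoxd13 lay between 5.25 and 6.08 in all 7 spleens and between 5.39 and 5.82 in SCL/LMO1 thymi. Among 18 enzymes of DNA and histone methylation, some of which the mutant enzyme's product inhibits, 3 were lower without overlap and 0 higher. Over all genes these shares were 5.64% and 5.18%. The DNA methyltransferases Dnmt3a and Dnmt3b differed by -1.26 (SE 0.38) and -1.41 (SE 0.50) and overlapped.

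Igf2bp2, an RNA-binding protein of fetal tissues, read 3.73, 4.67 and 4.62 in the T-lineage-low spleens and 6.67, 6.20, 7.16 and 6.41 in the T-lineage-high ones (difference -2.27, SE 0.31, limma adjusted p = 0.105). Pdgfrb, the beta receptor for platelet-derived growth factor of stromal cells, read 8.65, 9.13 and 9.15 in the T-lineage-low spleens and 13.06, 10.74, 11.15 and 9.59 in the T-lineage-high ones. It was the 1 gene of 14 stromal genes that separated the groups, so it too stood apart from its list. Over all genes 10.8% separated the groups. The 6 genes whose pattern over the 7 samples was most like that of Trgv4 were, in order, Gstt2, Zbtb11os1, Dnah8, Gimap9, Themis and Sytl2. Gimap9, a GTPase of lymphocytes, read 7.92, 7.64 and 6.89 in the T-lineage-low spleens and 10.08, 9.79, 9.16 and 8.91 in the T-lineage-high ones, in the same order as Trgv4 in every sample. Gstt2, a glutathione transferase, read 7.80, 7.89 and 6.78 in the T-lineage-low spleens and 9.94, 9.49, 9.45 and 8.52 in the T-lineage-high ones.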

How the data were processed

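Total RNA of 18 mouse samples was biotin-labelled and hybridised to 1-colour oligonucleotide arrays, per the labels. The authors deposited 1 log2 signal per probe set and array. Their probe summary and array normalization are not stated in the labels, and precision is limited by how many arrays there are. Another table's 36 value columns name no sample and were left unused.

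Of 45101 probe sets 38089 had 1 symbol, 6948 had none and 64 were controls. In all 35121 were matched by Entrez identifier to RefSeq symbols (GRCm38.p6) and 1813 symbols updated. The brightest probe set over the 18 arrays stood for each of 20672 genes, of which 11 receptor segments were not tested. The root mean square difference between mice 546 and 550 was 0.21, against at least 0.50 for other pairs of these samples. There are no detection calls, so a low signal may be background, and a fold against it is too small.

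The main test was limma 3.58.1 (lmFit and eBayes) on the values as deposited, with 1 coefficient for the split and Benjamini-Hochberg adjustment over 20661 genes. It was tested on simulated data. Samples were those of 1 genotype, so spread in the thymi did not enter. The split, the 39 gene lists (491 of 511 genes measured) and the genes were chosen with earlier results of these data known. Named genes were the 12 largest differences in each direction, the 6 genes most like Trgv4 by Pearson correlation, the engineered genes and up to 4 genes a list with the smallest p. Most T-lineage, progenitor and erythroid genes beyond these, and Nkg7, were chosen after their values were seen. Alternatives covered normalization, dim genes, probe sets, moderation, weights, the samples in the fit, covariates and leaving out each sample. Some genes that meet the rule are left unreported. Promoters are from RefSeq.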

Additional observations from a re-analysis of the deposited data

Results flagged for a closer look

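A sample whose gap to its nearest neighbour was above Dixon's critical value for its group was marked for 9 of 174 tests (5.2%), where chance alone marks about 1 in 20. Mouse 524 stood apart from the other T-lineage-high spleens for Skap1 (11.26), Kel (8.57) and Hoxa10 (4.33). Among all 7 spleens it stood apart for Rag1 (9.20), Klf1 (9.84) and Gata1 (8.15). Mouse 559 stood apart from the other T-lineage-high spleens for Scin (7.62). Mouse 570 stood apart from the other 6 samples for Hoxa10 (6.86) and Irf7 (11.01).

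The array of mouse 555, which was left out of the main comparison, carried a strong signal of kidney tubule genes. Umod read 14.01, Miox 13.58, Cdh16 12.20 and Slc34a1 11.77 there, and none of these 4 genes passed 5.64 in the other samples of the series. The array also held both Xist, at 9.53, and the Y-linked gene Ddx3y, at 6.70, whereas each of the other spleen samples held one of the 2. The source of these signals was not tested.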

How the results depend on the processing

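The count of 0 genes called by limma was also found with quantile normalization, centred medians, the erythroid covariate and an adjusted p under 0.01. It was 25 with dim genes left out, 2 with the mean of all probe sets, 3 with a variance trend and robust moderation, 171 with array weights and 349 with all 3 genotypes in the fit. It was 54 with mice 546 and 550 separate and 29 with mouse 555 included. With the continuous Trgv4 signal in place of the split, as the only predictor, it was 7. Leaving out each sample gave 0 to 16 calls, with 16 without mouse 524 and 11 without mouse 559. The count of genes without overlap, 2236 as deposited, was 1642 to 2247 under other settings and 2717 to 4878 without each sample, where smaller groups overlap less often by construction, with 4094 without mouse 525, 3432 without 531, 4878 without 570 and 4791 without 559. Of 1590 values for 84 named genes under other settings, 1459 kept their direction and their side of the threshold, 109 passed an adjusted p under 0.05 and 22 changed sign. The sign changes fell on 10 genes, whose causes were not tested. With the erythroid covariate the differences were 0.014 for Kit, 1.33 for Rag1, -0.15 for Gata1 and -0.12 for Nfe2. With the continuous Trgv4 signal in place of the split, slopes were scaled to the difference in mean Trgv4 between the groups. These scaled slopes were 0.069 for Cd2 and 0.57 for H2-Eb1. With array weights the differences were 0.066 for Kit and 1.17 for Hbb-bh1. With mouse 555 included they were 0.028 for H2-Eb1 and 0.74 for Hbb-bh1, and with the mean of all probe sets -0.029 for Nup98. That mean also moved some differences by over 1.5 times without a change of sign, to -2.07 for Cd247, -2.62 for Lck, -0.92 for Runx3, -0.43 for Stat5b, -0.67 for Bmf, 2.23 for Hoxa9 and 1.23 for Pank1. Leaving out each sample gave -0.61 to 0.015 for Cd2, -0.19 to 0.10 for Lyl1, -1.60 to 0.14 for Rag1, -1.72 to 1.08 for H2-Eb1, -2.20 to 1.42 for Hbb-bh1, -0.0047 to 0.41 for Hoxd13 and -0.021 to 0.27 for Nfe2. No paired analysis was possible because the groups share no replicate numbers.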
